A study of Mus musculus with 10 samples.

Results

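In 45 of 3126 alternative splicing events on a mouse splicing array, the alternative exon read as more skipped in brain by both probe indices used here. Both indices set brain against the median of the other 9 tissues measured, and the exon's own probes were not lower in every event. In 18 of the 45, some other tissue read as more skipped than brain by the index of junction probes. Brain was set against testis, spleen, salivary, muscle, lung, liver, kidney, intestine and heart. Each tissue came from CD1 mice, an outbred strain, as 1 sample of pooled total RNA, and the sources used here do not give ages, sexes, pool sizes or the brain regions taken. The array carried 7 probe kinds for each event: bodies of the flanking exons (C1 and C2), the body of the alternative exon (A), the junctions made on inclusion (C1:A and A:C2), the junction made on skipping (C1:C2), and a probe marked INT whose target is not stated. With 1 sample per tissue there are no replicates, so every difference below describes these 10 arrays with no test, and their number limits the precision.

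Values lie on a compressed scale, from 0 to 8.66 in the deposited table, whose base is not stated, so differences are stated in its units and never as folds. Array medians ran from 2.04 to 2.19. Each array was centred on its median, and the mean of the array medians, 2.12, was added back. The 45 exons were chosen by measured values. Both flanking exons had to read 2.1 or more in at least 8 of the 10 tissues, brain included. The junction index subtracts C1:C2 from the average of both inclusion junctions, and it had to lie at least 0.8 below the median of the other 9 tissues in brain. The body index subtracts the average of both flanks from A, and it had to lie at least 0.4 below the corresponding median. Both indices and all probe kinds but INT therefore entered the choice, and what they show in brain describes the choice and supports nothing further.

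Skipping of an exon joins its flanking exons directly and removes its sequence from the mRNA, which can delete a protein segment or shift the reading frame. Brain is known for many tissue-specific splicing choices. Neurons use RNA-binding regulators such as the NOVA and RBFOX proteins, which promote or repress an exon depending on where they bind beside it, and they replace the repressor PTBP1 by its paralogue PTBP2. The deposited table pairs no event with a gene name or a probe sequence. Events are therefore given by their identifier, the labelled tissues could not be checked against marker genes, and no role can be given to any single exon. It could not be determined which events share a gene.

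The flank requirement left 1094 events expressed in brain. Among these, 74 passed the junction threshold, and 45 of the 74 also passed the body threshold, which is 4.11% of the expressed events. The other 29 failed on the body index, and in 8 of these it was higher in brain. Just inside the junction threshold stood Ben2565 at -0.83, Ben672 at -0.81 and Ben1915 at -0.80. Just outside it, with a passing body index, stood Ben3183 at -0.79, Ben1173 at -0.78 and Ben109 at -0.75. On the body index the members nearest the limit were Ben2718 and Ben1160, both at -0.40, and Ben3890, at -0.39, was left out with a junction index deviation of -1.80. Values thus ran through both limits without a gap. Over all expressed events the junction index in brain had a median deviation of 0.08 with a robust SD of 0.41, and the body index a median of -0.0036 with a robust SD of 0.36.

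**Figure D1:**
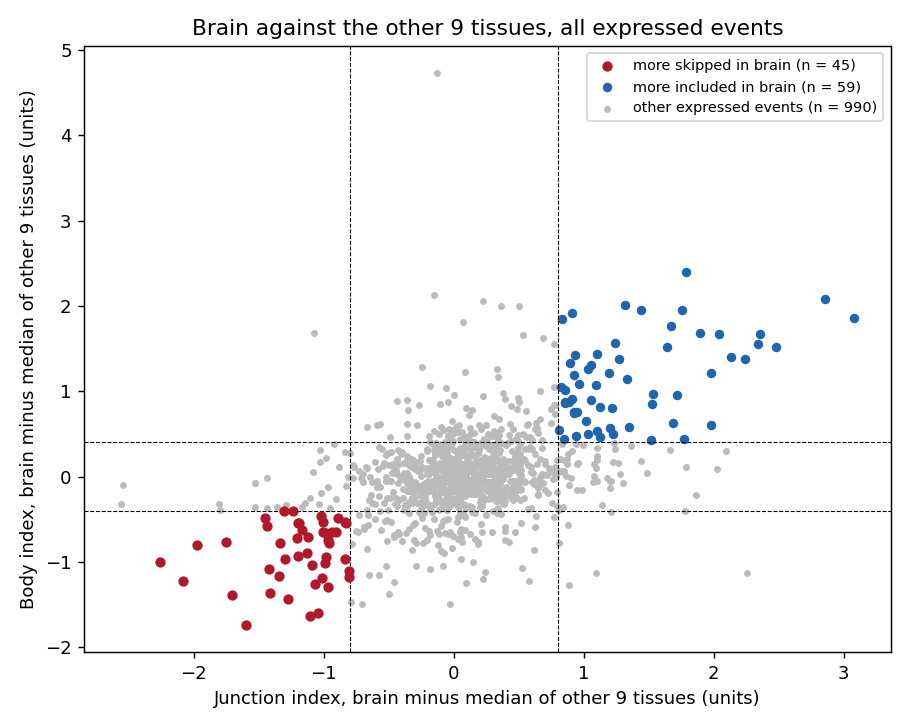
Each point is 1 of 1094 expressed events, with the junction index in brain minus the median of the other 9 tissues on the x axis and the same for the body index on the y axis, both in units of the deposited scale. Dashed lines mark the thresholds of 0.8 and 0.4. The 45 exons more skipped in brain lie at the lower left, with junction deviations between -2.26 and -0.80, and 59 more included exons lie at the upper right.

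Brain did not hold the most exons of this kind. By the same rule applied to each tissue against its own other 9, testis had 70 more skipped exons (6.72% of its expressed events), liver 64 (5.71%), kidney 58 (5.02%) and heart 53 (4.70%). Fewer were found in intestine with 37 (3.22%), spleen with 26 (2.43%), muscle with 26 (2.33%), lung with 26 (2.26%) and salivary with 24 (2.15%). In the opposite direction 59 exons were more included in brain, 5.39% of the expressed events. These sets share comparator tissues and are not independent of each other. With quantile normalization brain had 50 more skipped exons, against 57 in heart, 57 in kidney, 45 in lung, 44 in testis, 39 in intestine, 34 in muscle and 31 each in liver, salivary and spleen, so the rank of brain among the tissues depends on the scaling.

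Lower inclusion junctions and a higher skipping junction both entered the lower indices. Across the 45 exons, brain deviated from the median of the other tissues by a median of -0.53 for C1:A, -0.67 for A:C2 and -0.55 for A, and by 0.67 for the skipping junction C1:C2. Over all expressed events these medians were -0.07, -0.05, -0.05 and -0.14. The mean of the inclusion junctions was lower by at least 0.5 in 25 of the 45, against 19.7% of expressed events, and the A probe in 25, against 21.4%. C1:C2 was higher by at least 0.5 in 24, against 15.8%. The rule selects in these directions, so nothing is read from the excess. Both inclusion junctions were lower by at least 0.5 in 20 exons (12.9% of expressed events), exactly 1 of them in 8 (19.7%) and neither in 17 (67.5%). A was below the other tissues' median in 39 exons (53.3% of expressed events) and C1:C2 above it in 36 (41.3%). A deviation of an index is not the sum of its probes' deviations, because each is taken from a median of its own.

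**Figure D2:**
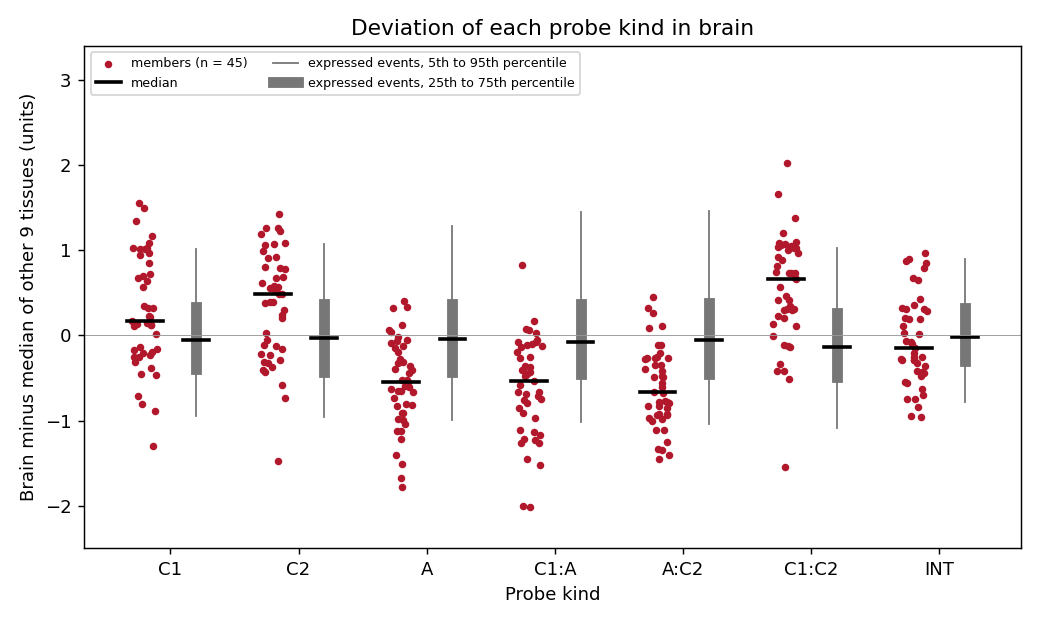
The y axis gives brain minus the median of the other 9 tissues for each probe kind, in units of the deposited scale. Red points are the 45 members with their median as a black bar, and grey bars give the 25th to 75th and the 5th to 95th percentile of 1094 expressed events. Members lie low in A, C1:A and A:C2, high in C1:C2, and spread over the same range as other events in INT.

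The members fell into groups by whether the mean of both inclusion junctions was lower, and C1:C2 higher, by at least 0.5. In 19 exons only the inclusion mean was lower, in 18 only C1:C2 was higher, in 6 both held, and in 2, Ben1529 and Ben1915, neither held. A single inclusion junction could differ from the mean. A:C2 deviated by -1.11 in Ben560, which is among the 18, and by only -0.20 in Ben1368, which is among the 19. Transcript level, the mean of C1 and C2, differed between these groups. It deviated by a median of -0.21 where only inclusion was lower (range -1.39 to 0.92), and by 0.75 where only skipping was higher (range -0.42 to 1.36). Where both held, the median was 0.61 (range 0.10 to 1.06). Level was higher in brain by at least 0.5 in 2 of the 19, 12 of the 18 and 5 of the 6. In the 18, C1:C2 deviated by a median of 1.04, C1 by 0.67 and C2 by 0.84. Whether the higher C1:C2 followed the higher level was not tested. The A probe was lower by at least 0.5 in 17 of the 19, 6 of the 18 and 2 of the 6. Where only skipping was higher, A deviated by a median of -0.14, and where only inclusion was lower, C1:C2 deviated by a median of 0.10. The groups were formed from junction values, and the flanks and A entered the choice of members, so these values describe the groups and support nothing further.

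**Figure D3:**
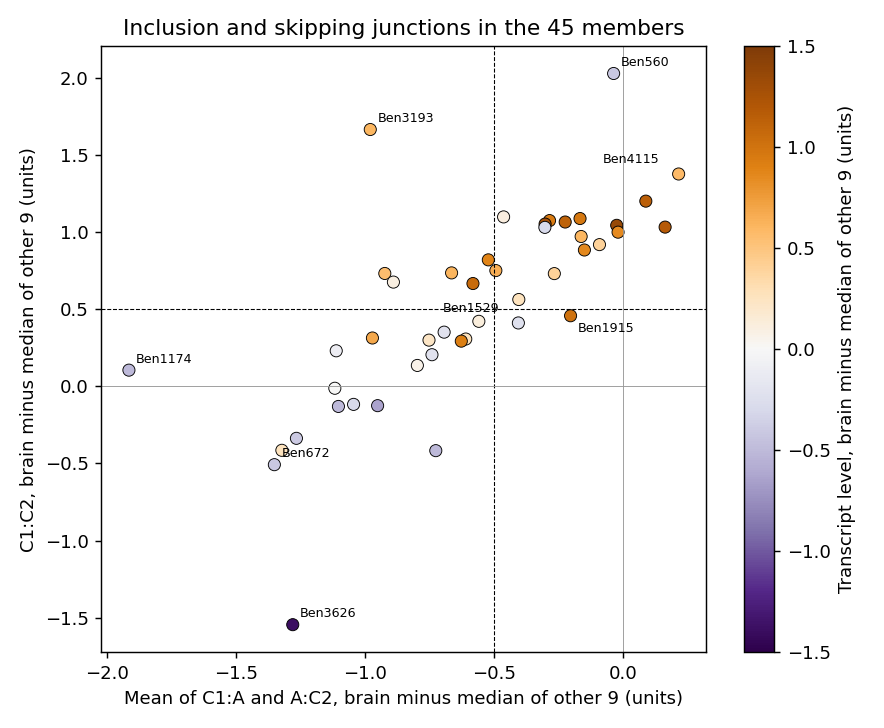
Each point is 1 of the 45 members, with the average inclusion junction in brain minus the median of the other 9 tissues on the x axis and the same for C1:C2 on the y axis, in units of the deposited scale. Colour gives the deviation of transcript level, and dashed lines mark 0.5 units. Members with low inclusion junctions lie at the left and are mostly pale or purple (level not higher), and those with a high skipping junction lie at the top right and are mostly orange (level higher). Ben3626 lies alone at the bottom.

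Among exons with lower inclusion junctions, Ben1174 had the lowest. Its C1:A junction read 0.52 in brain, against 2.53 in heart, 2.68 in intestine, 1.78 in kidney, 2.51 in liver, 1.65 in lung, 3.61 in muscle, 1.22 in salivary, 3.73 in spleen and 4.83 in testis. Its A probe and its A:C2 junction were both listed at 0 in brain in the deposited table, whereas the lowest values elsewhere, after centring, were 0.91 for A and 0.64 for A:C2. Brain was thus below every other tissue in all 3 probes of the exon. It was also below every other tissue in INT, at 0.07 against 0.57 to 1.35. The transcript was well expressed, with a level of 4.72 in brain and 3.44 to 5.88 elsewhere, and C1:C2 was high throughout, at 5.0 in brain and 3.48 to 6.0 elsewhere. The junction index was -4.78 in brain, between -3.86 and -1.75 in 8 tissues, and -0.44 in testis. These tissues therefore ran from brain at the skipped end to testis at the included end.

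Ben32 had the lowest body index deviation, -1.74. Its A probe read 2.94 in brain against a median of 3.93, although its transcript level was higher in brain, 3.99 against 3.31. The junction index was -1.69 in brain, -1.60 in intestine, -1.38 in salivary and -1.15 in testis, while the remaining tissues lay between -0.51 and 0.39. The gap to intestine was only 0.09, and a group of tissues shared the low values. The exon of Ben1289 had C1:A listed low in brain, at -0.03 after centring, but lung, muscle and salivary were also near 0 at 0.12, 0.09 and 0.08. Its junction index was -0.80 in brain, -0.58 in heart and -0.50 in spleen, against 0.36 to 1.43 in the other tissues.

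In other members of this group the transcript level was lower in brain too. Ben3626 had the lowest level deviation, with 2.79 in brain and 3.05 to 5.48 elsewhere, and all 6 of its exon and junction probes were below the others' median in brain, with deviations of -1.55 for C1:C2 and -1.40 for A. Its junction index was -0.56 in brain, 0.06 to 0.75 in 8 tissues and -1.66 in testis, so testis skipped the exon more than brain did by this measure. Ben3338 was also lower in level, with a deviation of -0.64, and had a junction index of 0.78 in brain, 0.72 in heart and 0.69 in testis, against 0.99 to 2.26 elsewhere. In Ben672 both A and C1:A were listed at 0 in brain, against medians of 1.61 and 1.94, yet its C1:C2 deviated by -0.51 in brain as well, and its junction index only just passed the rule.

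The skipping junction deviated most in Ben560. C1:C2 read 5.32 in brain, against 4.24 in heart, 4.68 in intestine, 3.68 in kidney, 2.68 in liver, 3.21 in lung, 3.29 in muscle, 3.12 in salivary, 2.79 in spleen and 3.98 in testis. Brain was highest of the 10, and A was lowest there, 2.94 against 2.99 to 4.74. The inclusion junctions disagreed: A:C2 was lowest in brain, at 2.31 against 2.45 to 4.32, whereas C1:A was as high as in any tissue, 4.91 in both brain and intestine. In Ben560 the index thus rests on A:C2, A and C1:C2 and not on C1:A. In Ben291 the A probe read 1.84 in brain against a median of 3.35, although muscle (1.66) and spleen (1.58) were lower, and its C1:C2 junction 2.30 in brain against 0.66 to 1.40 in the other tissues, so the skipping junction in brain lay above all of them.

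Several exons of this group belonged to transcripts higher in brain. Ben530 and Ben1898 had the highest level deviations, 1.36 and 1.29. Ben530 had C1:C2 at 4.24 in brain against a median of 3.20, with inclusion junctions close to the others (C1:A -0.36 and A:C2 0.26 from their medians). Muscle, where its level was highest (4.91), had a lower junction index than brain, -2.80 against -2.30. In Ben1898 the level was 4.06 in brain against 1.87 to 3.49, and the index was -2.93 in brain, next to -2.71 in kidney, the tissue with the next highest level. In both exons the mean of the inclusion junctions varied little over the other tissues, from 1.83 to 2.14 in Ben530 and from 1.41 to 1.99 in Ben1898, and brain lay inside these ranges at 1.94 and 1.42. The A probe was low in every tissue and not lower in brain. It read 0.69 in brain against a median of 0.37 in Ben530, and 0.82 against 0.69 in Ben1898. The lower body index of both exons thus came from their higher flanks. In Ben3692 the A probe was higher in brain too, by 0.41, while the flanks C1 and C2 were higher by 1.08 and 1.27, which lowered the body index.

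A lower mean of the inclusion junctions and a higher skipping junction were combined in 6 members. Ben3193 had the lowest junction index deviation of all 45. Its C1:C2 junction read 3.36 in brain and 1.29 to 2.93 elsewhere, its C1:A junction 0.30 against 0.46 to 2.87, and its A:C2 junction 0.10 against 0.42 to 2.65. Brain was beyond all other tissues in the 3 junctions. The junction index was -3.16 in brain, -2.11 in testis, -2.0 in heart, -1.76 in lung, -1.24 in spleen, -0.90 in muscle, -0.02 in kidney, 0.24 in liver, 0.47 in salivary and 0.60 in intestine. The A probe did not single out brain, at 0.76 against 0.31 in spleen and 0.61 in muscle, and it read above 1.5 only in salivary (2.16). Other members of the group were Ben822, Ben1061, Ben1160, Ben2880 and Ben2998. In Ben1160 brain and muscle had about the same index, -1.25 and -1.26, with C1:C2 at 3.78 and 3.88.

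The order of the other tissues was not fixed by the rule. Brain had the lowest junction index of the 10 tissues in 27 of the 45 exons, the second lowest in 12 and the third lowest in 6, whereas over all expressed events it was lowest in 9.96%. It had the lowest body index in 23, against 12.8%, and the lowest of both indices in 21, against 3.66%. Brain was lowest in C1:A in 17 exons (14.0% of expressed events), in A:C2 in 17 (11.9%) and in A in 13 (10.7%), and highest in C1:C2 in 12 (8.32%). These shares follow from the choice of members. Where brain was lowest in the junction index, it lay below the next tissue by 0.06 to 1.14, with a median of 0.49, and by at least 0.5 in 13 exons. These gaps were not computed over all expressed events, so they describe the members only.

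**Figure D4:**
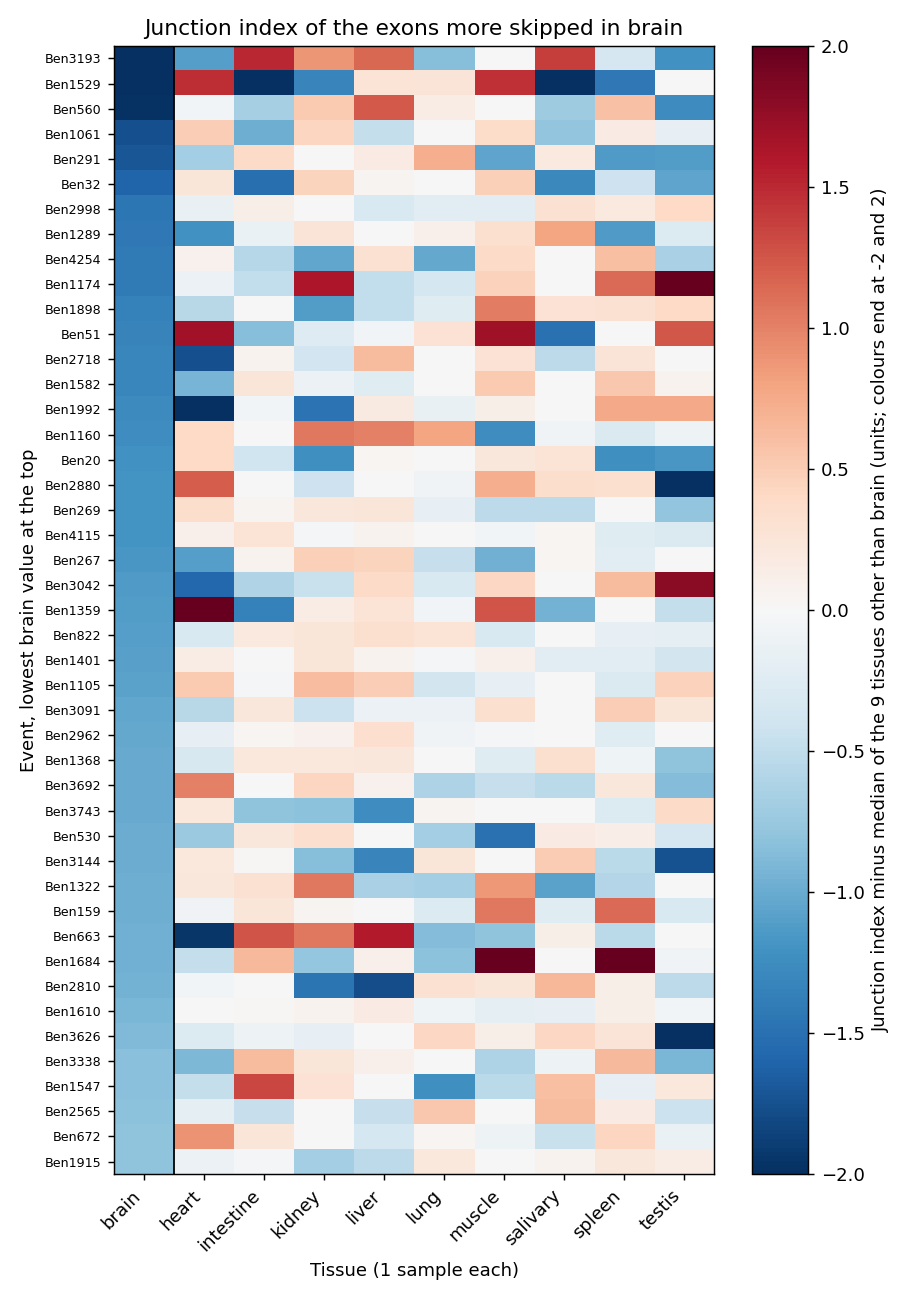
Rows are the 45 members ordered by brain, with brain at the left and the other 9 tissues to its right. Colour gives the junction index minus the median of the 9 tissues other than brain, in units of the deposited scale (colours end at -2 and 2), so blue is more skipped. Some rows are blue in brain alone, such as Ben4115 and Ben1610, whereas in Ben1529, Ben2880 and Ben663 another tissue is as blue or bluer.

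Leaving brain aside, testis was the lowest of the other 9 tissues in 12 of the 45 exons (26.7%), against 13.2% of expressed events. Heart followed with 8 (17.8%, against 22.2%) and intestine with 5 (11.1%, against 8.87%). Testis deviated from the median of the 9 by a median of -0.17 in the members, against 0.08 over expressed events, and spleen by 0.11, against 0.00. Across the other 9 tissues the junction index also varied more in the members, with a median SD of 0.64 units, against 0.40 over expressed events. The rule used the median of these same values, so this is a description, and the SD ran down to 0.12 in Ben1610.

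In 10 exons the drop in brain exceeded the whole range of the other 9 tissues, against 2.83% of expressed events in which this held. They were picked out after their values were seen, and are Ben1061, Ben2998, Ben269, Ben4115, Ben822, Ben1401, Ben1105, Ben3091, Ben2962 and Ben1610. Only the mean of the inclusion junctions was lower by at least 0.5 in 4 of them, only the skipping junction was higher in 3, and both held in 3. None came from the group in which neither passed 0.5.

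Ben2998 had the widest gap to the next tissue, 1.14 units. Its junction index was -1.03 in brain, 0.28 in heart, 0.53 in intestine, 0.42 in kidney, 0.11 in liver, 0.19 in lung, 0.21 in muscle, 0.73 in salivary, 0.62 in spleen and 0.83 in testis. Its transcript level hardly differed, at 3.16 in brain against 2.71 to 3.49. Both inclusion junctions were lowest in brain, C1:A at 1.37 against 1.82 to 2.79 and A:C2 at 0.99 against 1.31 to 2.32, and C1:C2 was highest there, at 2.21 against 1.12 to 2.01. The exon of Ben2998 thus read as more skipped in brain in all 3 junctions and at a like level of the transcript. Its A probe set brain apart less, at 2.14 against 2.17 in liver, as did its body index, -1.02 against -0.90 in lung.

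Ben4115 rested on the skipping junction. C1:C2 read 3.16 in brain, against 1.65 in heart, 1.41 in intestine, 1.77 in kidney, 1.65 in liver, 1.84 in lung, 2.21 in muscle, 2.01 in salivary, 2.34 in spleen and 1.78 in testis. The inclusion junctions did not single out brain, with C1:A at 1.46 against 0.88 to 1.73 and A:C2 at 3.31 against 2.76 to 3.46. Its body index, -1.71 in brain, overlapped with lung (-1.76) and muscle (-1.74). The A probe read 1.53 in brain against 1.22 to 1.76 elsewhere. None of A, C1:A and A:C2 of Ben4115 was below the others' median in brain, and its level was higher there by 0.58. Its INT probe was also highest in brain, at 1.53 against 0.18 to 1.2, and had the highest INT deviation of the members, 0.96.

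Ben1610 had the tightest values outside brain. The junction index was 0.01 in brain and 0.74 to 1.09 in the other 9 tissues, a range of 0.35. The A probe was lowest in brain, 2.91 against 3.35 to 4.30. The level of 3.69 lay inside the others' 3.48 to 4.90 but deviated by -0.51 from their median. C1:C2 was not higher in brain, with a deviation of -0.13. The body index was -0.79 in brain, -0.86 in testis and -0.18 to -0.04 in the remaining tissues. By its junctions this exon was lower in brain alone, and by its body probe in brain and testis. Ben2962 was similar in its junctions, at -1.28 in brain against -0.50 to 0.08, and its C1:A and A:C2 junctions were lowest in brain at 2.03 and 1.96. In Ben822 the level was highest in brain, 3.55 against 1.0 to 3.16, while A read 1.74 against a median of 2.26, which gave a body index of -1.81 in brain and -0.78 to 0.06 elsewhere.

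**Figure D5:**
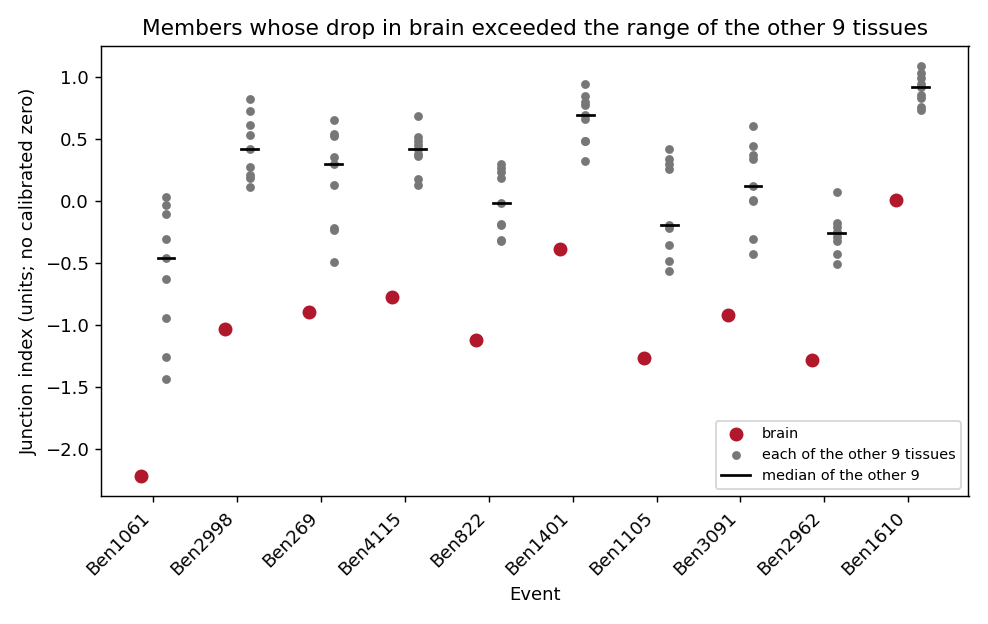
For the 10 members whose drop in brain exceeded the range of the other 9 tissues, the y axis gives the junction index in units of the deposited scale, with no calibrated zero. The red point is brain, grey points are the other tissues and the bar is their median. Brain lies below every other tissue in each event, by 1.14 in Ben2998 and by 0.40 in Ben269.

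In 18 members another tissue had a lower junction index than brain. Ben2880, picked out after its values were seen, had the widest gap, with -5.56 in testis and -3.20 in brain, against -2.42 to -0.79 in the other 8 tissues. Its transcript was highest in testis as well, with a level of 7.08 there and 3.97 in brain, against 2.5 to 3.28 elsewhere, and its A probe was dim in all tissues (0.61 in brain, 0.47 to 1.37 elsewhere). Ben1529 had the widest spread. Its junction index was -2.12 in brain, -3.37 in intestine, -2.29 in salivary, -1.46 in spleen, -1.35 in kidney, -0.03 in testis, 0.23 in lung, 0.24 in liver, 1.43 in muscle and 1.44 in heart. Brain thus shared the low values of Ben1529 with intestine and salivary, and the median of the other 9 fell on testis between the low and the high tissues.

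A like pattern was seen in Ben51 and Ben1359, which were picked out after their values were seen. In Ben51 the junction index was -2.83 in brain, -2.98 in salivary and -2.34 in intestine, against 0.18 in heart and 0.21 in muscle. In Ben1359 it was -2.14 in brain, -2.38 in intestine and -1.97 in salivary, against 1.42 in heart and 0.23 in muscle. The A probe also set heart and muscle apart, at 0.62 in brain, 4.36 in heart and 4.73 in muscle for Ben51, and at 1.58, 5.98 and 5.20 in the same tissues for Ben1359. In Ben1359 A in brain lay near the others' median of 1.60, and it was lower in salivary (0.79) and intestine (1.27). In Ben51 level was highest in heart (4.15) and muscle (4.08), against 2.77 in brain. In Ben1359 level was also highest there, at 5.79 and 5.22 against 3.46. C1:C2 was higher in heart and muscle than in brain too, at 4.02 and 4.32 against 3.09 in Ben51. In Ben1359 it was 3.997 and 4.72 against 3.51, whereas in Ben1529 it was lower, at 2.97 and 2.42 against 3.38. Whether the index followed level was not tested. By the junction index alone, heart and muscle were at the included end of these 3 exons. Brain shared the skipped end with intestine and salivary by that index. The exon of Ben663 ran another way. Its index was -1.92 in brain, -2.90 in heart, -1.82 in lung and -1.76 in muscle, against 0.10 in kidney, 0.30 in intestine and 0.63 in liver. In Ben20 brain (-1.93), spleen (-1.96), kidney (-1.95) and testis (-1.89) were nearly equal, and the other tissues lay between -1.13 and -0.33. In Ben2718 heart was lowest at -1.80, brain was at -1.34, and A:C2 was listed at 0 in brain, where its median elsewhere was only 0.20.

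Transcript level and INT were also set beside all expressed events. Level was higher in brain by at least 0.5 in 20 of the 45 members, against 17.7% of expressed events, and lower in 5, against 17.6%. The median deviation was 0.27, against -0.04. Level enters the body index with a minus sign, so this is partly what the rule selects. INT was the probe kind that the rule did not use. It deviated in brain by a median of -0.15 in the members, against -0.01 over expressed events, with a range of -0.96 to 0.96. The members' median was -0.07 with columns as deposited and -0.08 with quantile normalization. INT was lower by at least 0.5 in 9 members (20.0%, against 14.1%), and higher by that much in 7 (15.6%, against 16.7%). Brain was lowest of the 10 tissues in INT in 10 members (22.2%, against 14.3%). The lowest INT deviations were in Ben1174 (-0.96) and Ben3338 (-0.95), and the highest in Ben4115 (0.96) and Ben1061 (0.89). INT in the members thus stayed close to all expressed events, leaning slightly lower, and the difference was not tested.

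Dim probes limit what many of these exons can show. The 75th percentile of all INT values, 1.91, served as a mark of low signal. In brain, C1:A read below it in 28 of the 45 members (24.6% of expressed events), A:C2 in 25 (26.4%) and A in 24 (21.4%). In the median of the other tissues these were 18 members for C1:A (274 of the 1094 expressed events), 18 for A:C2 (301) and 16 for A (238). C1:C2 was below it in 5 members in brain and in 14 in the median of the others, against 30.9% and 24.5% of expressed events. In 16 members both inclusion junctions exceeded the mark in the median of the other tissues and C1:C2 exceeded it in brain. Of these 16, brain had the lowest junction index in 12, against 27 of all 45 members. Neither count was computed over all expressed events, and the rule selects for a low index in brain, so nothing is read from them. Ben822, Ben1105, Ben1610, Ben2962 and Ben269 were among the 16 and also among the 10 exons in which brain stood apart. Ben2998 was not among the 16, since its A:C2 junction had a median of 1.82 in the other tissues.

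Transcript level was also set beside that of the more skipped exons of the other tissues, in comparisons that share samples. Brain's median level deviation of 0.27 compared with 1.16 in liver, 1.02 in kidney, 0.91 in testis, 0.83 in heart, 0.79 in intestine, 0.70 in lung, 0.47 in spleen, 0.34 in muscle and 0.19 in salivary. Over all expressed events these level medians were -0.04 in brain, 0.32 in liver, 0.24 in kidney, 0.19 in testis, 0.18 in heart, 0.0070 in intestine, -0.03 in lung, -0.05 in spleen, -0.06 in muscle and -0.08 in salivary. With quantile normalization brain's median was 0.44. The other tissues' medians were not computed under that scaling, so the place of brain among them there is not known. The share of more skipped exons in which the tissue itself had the lowest junction index was 60.0% in brain and between 46.2% in lung and 66.7% in salivary elsewhere. The 59 exons more included in brain had the same median level deviation, 0.27, but a higher INT, with a median of 0.26 against -0.15 in the more skipped exons. In them A deviated by a median of 1.25, and the skipping junction by -0.35, against -0.55 and 0.67 in the more skipped exons. A and C1:C2 chose both sets, so these values are a description, and the difference in INT was not tested.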

How the data were processed

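Probe values of 10 mouse tissue samples were taken from the deposited value table, 21882 probes for 3126 events. They are treated as a score made by the authors, since the labels and the table state no scale, background correction or normalization. No sample column was left unused. The table was read with Python 3.11.15, pandas 2.3.3 and numpy 2.4.6 and drawn with matplotlib 3.10.9. Centring moved each array by -0.07 to 0.08 units. It cancels in both indices, so it bears only on the flank requirement and on single probes. Deviations are brain minus the median of the other 9 tissues. With 1 sample per tissue no model or p-value was computed. The script that calls events was checked on simulated data with known changes.

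The members, the groups by junction and the 0.5-unit mark were chosen with earlier results of these data known. Members were named by rule: the 8 lowest junction indices, the extremes of level, INT, C1:C2, mean inclusion junction and body index, the largest gaps to the next tissue, those meeting the rule in most tissues, and those nearest the threshold. Counts of members meeting the rule in a second tissue are not given, since the comparisons share comparator samples. Tissues' markers and gene lists were not used, because no event is named. Alternatives tried were other scaling, comparators, thresholds, flank floors, inclusion junctions and a filter on dim junction probes.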

Additional observations from a re-analysis of the deposited data

How the results depend on the processing

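No paired analysis was possible because the labels give a single sample for every tissue. The 45 exons became 43 with columns as deposited, 50 with quantile normalization (41 shared) and 40 with the mean of the other tissues (36 shared). When the comparator lacked any 1 tissue they numbered 39 to 45, of which 37 to 42 were shared. Counts moved by over 1.5 times with a junction threshold of 1.2 (17 exons), with no body criterion (74), with a flank floor of 1.5 (75) or 2.5 (26) and with flanks required in all 10 tissues (20), changes that follow from wider or narrower criteria. They moved also when both inclusion junctions elsewhere and C1:C2 in brain had to exceed the INT mark, chosen after seeing the data (16). Under quantile normalization the more skipped exons became 31 for liver, 44 for testis and 45 for lung, and the cause was not tested. The other counts stayed within 1.5 times, and the median deviations of probes, level and INT kept their sign in the alternatives run, though level ran from 0.26 to 0.44 and INT from -0.15 to -0.07. Low signal of inclusion probes limits how far a drop can be measured.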
